A study of Sus scrofa with 48 samples.

Results

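CDKN1A, JMY, MDM2, GADD45A, BAX and CCNG1 are 6 genes of the cellular response to DNA damage and other stress, and their transcripts were followed in perirenal adipose tissue of pigs, which surrounds the kidneys. The probes were chosen by gene name in the scanner files, with upper and lower case ignored. Of 60305 probes on the array, 12 carried the name of 5 of the 6 genes. CDKN1A had 4 probes, BAX 3, GADD45A 2, CCNG1 2 and MDM2 1. No probe carried the name JMY. On each of the 48 arrays all 12 probes stood well above background, and none was saturated.

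The tissue came from 48 pigs, 12 in each of 4 groups. The pigs were Large White barrows aged 132 days, from a line selected for low residual feed intake (RFIneg) or a line selected for high residual feed intake (RFIpl), and ate freely. Residual feed intake (RFI) is the feed eaten beyond that predicted from growth and maintenance. HF_RFIneg and HF_RFIpl pigs received the high fat, high fiber (HF) diet, and LF_RFIneg and LF_RFIpl pigs the low fat, low fiber (LF) diet, which is rich in starch. Fat, fiber and starch changed together, so that their effects cannot be told apart. The study reported that HF pigs also ate less, weighed less at the end and had relatively less perirenal fat. These differences cannot be told apart from the diet either. The Cy3-labelled RNA of a pig was hybridised to an array of its own, and each of the 6 slides held 2 arrays of every group.

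A value is log2 of the median intensity of a spot minus the median of its array, so that 0 is the level of the median probe. Diet and line were compared with limma over all 60305 probes, with terms for diet, for line and for the interaction of both. A probe was called at a raw p under 0.01, a fold change over 1.1 and a Benjamini-Hochberg (BH) adjusted p under 0.08, and every BH value refers to this test. Differences are HF minus LF unless stated, on the log2 scale. In whole tissue, fewer cells of a type and less RNA per cell cannot be told apart. The array medians lay between 115 and 178 intensity units, and 38875 to 47813 probes per array were well above background. Of 7 adipocyte markers measured, all 7 stood well above background on each of the 48 arrays.

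When cells meet DNA damage or other stress, a set of target genes is switched on that halts division, repairs DNA or starts cell death. CDKN1A encodes p21, which inhibits cyclin-dependent kinases (CDK) and stops the cell cycle. GADD45A is a stress protein of growth arrest and DNA repair, CCNG1 encodes cyclin G1, and BAX permeabilises the outer mitochondrial membrane during apoptosis. MDM2 is a ubiquitin ligase that is induced by the response and limits it, which closes a feedback loop. JMY works with the acetyltransferase p300 as a transcriptional cofactor and also nucleates actin filaments. In adipose tissue, p21 is known from work on adipocyte differentiation and senescence.

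The probe sequences show which probes read the same stretch of a transcript and therefore do not count as separate measurements. The brightest CDKN1A probe, A_72_P152936, shared 58 bases with A_72_P715228 except for 1 substitution, G57A, counted from 1 at the 5′ end of A_72_P152936. Another probe at this site was tied to CDKN1A only by a supplementary list of the study. It shared 56 bases with A_72_P152936 without a mismatch. The 30 bases that correspond to positions 31 to 60 of A_72_P152936 are given for the 3 probes, with the base that differs in capitals.
A_72_P152936: aataaatatttctggtgattttacttGtaa
A_72_P715228: aataaatatttctggtgattttacttAtaa
List-named CDKN1A probe: aataaatatttctggtgattttacttGtaa
The window opens with AATAAA, the hexamer of the polyadenylation signal. In the letters of the probes as written, on that strand alone, 10.3% of all 60305 probes of 60 bases held this hexamer. The other CDKN1A probes, A_72_P477002 and O11893, shared no such stretch with these probes or with each other.

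The 2 GADD45A probes, O13891 and A_72_P146986, overlapped by 57 bases without a mismatch, and the first 30 bases of O13891 are shown together with those of A_72_P477002, the separate site in CDKN1A. The BAX probes O1895 and A_72_P367598 carried 1 identical sequence of 60 bases, shown in full because the array thus measured it in 2 places.
CDKN1A, A_72_P477002: cccgagcttctggcattagaattatttaaa
GADD45A, O13891: gaaccacgcaggatggaaaacaaaactatg
BAX, O1895 and A_72_P367598: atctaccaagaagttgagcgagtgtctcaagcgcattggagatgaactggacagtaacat
The 2 CCNG1 probes did not overlap, nor did A_72_P206452 overlap the other BAX probes.

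CDKN1A, GADD45A and CCNG1 were lower in HF than in LF pigs, whereas the differences of MDM2 and BAX did not pass the thresholds. Of the 12 probes, 8 were called, and all 8 were lower in HF. They comprised 4 of 4 CDKN1A, 2 of 2 GADD45A and 2 of 2 CCNG1 probes. Of these, 2 CDKN1A probes overlap in sequence, as do the 2 GADD45A probes. Counts and medians over the 12 probes, here and below, therefore hold some sites more than 1 time. Among all 60305 probes, 17.6% were called for diet, 11.4% lower and 6.22% higher in HF. With the brightest probe of each of 10638 named genes, 21.4% were called. In a fit of the 40509 probes well above background on every array of at least 1 group, 9829 were called. The members were chosen with earlier results of these data known. The study had listed CDKN1A as lowered and JMY as raised by the HF diet in these pigs. The counts are therefore no test of the members against these shares. The median difference was -0.23 over the 12 probes and -0.039 over all probes. The direction of the calls over all probes depended on the scaling. Of called probes, 35.3% were higher in HF, against 49.3% to 52.8% with 75th percentile centring, processed signals or quantile normalization and 93.7% with centring on spike-in controls, RNAs added to every sample, which moved the median of all probes from -0.039 to 0.11.

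**Figure D1:**
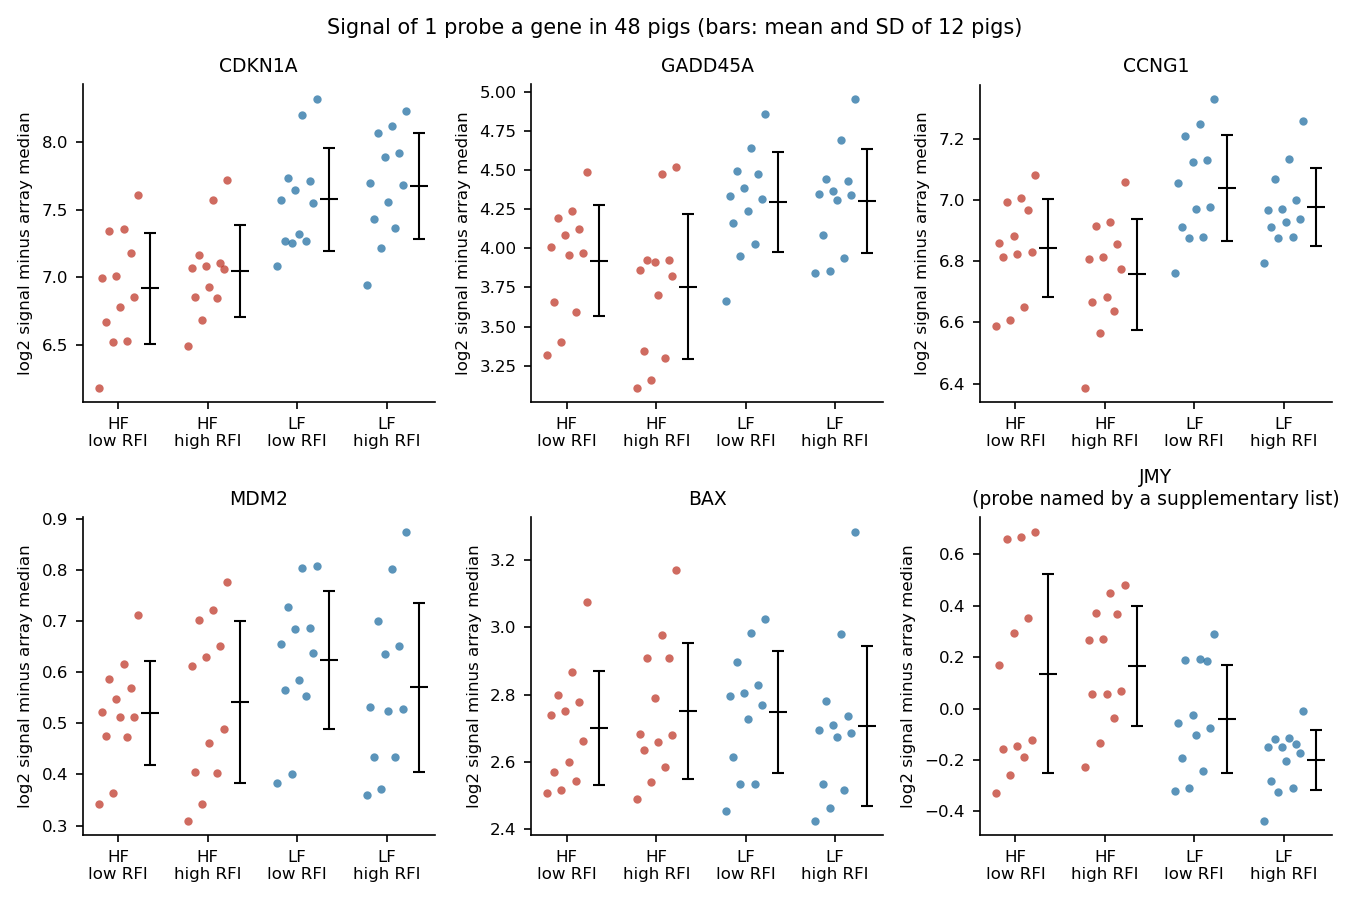
Log2 signal minus the array median (vertical axes) in each pig of the 4 diet and line groups (horizontal axes), for the brightest probe of 5 genes and for the probe that a supplementary list names JMY. Points are pigs, and bars to their right give the mean and SD of 12 pigs. In CDKN1A the HF groups averaged 6.92 and 7.05 and the LF groups 7.58 and 7.67, while the 4 group means of BAX lay between 2.70 and 2.75.

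CDKN1A changed most. In HF_RFIneg pigs its brightest probe ranged from 6.19 to 7.60, with a median of 6.93, and in HF_RFIpl pigs from 6.50 to 7.72, with a median of 7.07. In LF_RFIneg pigs it ranged from 7.09 to 8.32, with a median of 7.56, and in LF_RFIpl pigs from 6.94 to 8.22, with a median of 7.69. The diets overlapped, but 11 of 24 HF pigs lay below every LF pig, 8 of 24 LF pigs lay above every HF pig, and the LF mean exceeded 23 of 24 HF pigs. HF pigs averaged 6.99 ± 0.37 (SD, n = 24) and LF pigs 7.62 ± 0.38 (SD, n = 24). The difference was -0.64 (SE 0.11, 95% interval -0.85 to -0.43), a level 1.56-fold lower in HF (limma, BH p = 2.54e-05).

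The overlapping probe with the G57A substitution gave a difference of -0.61 (SE 0.10), and the list-named probe at the same site, not counted among the 12, gave -0.62 (SE 0.11). Over the 48 pigs A_72_P152936 correlated with these at r = 0.996 and 0.994, as sites with shared bases. The separate site, A_72_P477002, correlated with A_72_P152936 at r = 0.95, and at r = 0.92 with group means removed. It fell from 1.05 ± 0.32 (SD, n = 24) in LF to 0.52 ± 0.36 (SD, n = 24) in HF, a difference of -0.53 (SE 0.097, BH p = 7.84e-05 with limma). The dimmest CDKN1A probe, O11893, had a mean of -0.997, below the median probe. It correlated with A_72_P152936 at r = 0.54, and at r = 0.46 with group means removed. Its difference was -0.25 (SE 0.092, BH p = 0.050 with limma), and it was called in 19 of 48 fits that each left out 1 pig. One LF_RFIneg pig read 0.81 on this probe, while the median of that group was -0.92.

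GADD45A was lower in HF as well. The brightest probe, O13891, ranged from 3.32 to 4.49 with a median of 3.99 in HF_RFIneg and from 3.11 to 4.52 with a median of 3.84 in HF_RFIpl pigs. It ranged from 3.67 to 4.86 with a median of 4.32 in LF_RFIneg and from 3.84 to 4.95 with a median of 4.34 in LF_RFIpl pigs. The diets overlapped more than in CDKN1A, with 8 of 24 HF pigs below every LF pig and 4 of 24 LF pigs above every HF pig. HF pigs averaged 3.84 ± 0.41 (SD, n = 24) and LF pigs 4.30 ± 0.32 (SD, n = 24), a difference of -0.46 (SE 0.10, 95% interval -0.67 to -0.25, fold 1.38, BH p = 0.0012 with limma). The overlapping probe A_72_P146986 gave -0.46 (SE 0.10) and correlated with O13891 at r = 0.99 over the 48 pigs.

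CCNG1 differed less, but its pigs also varied less. A_72_P303099 ranged from 6.59 to 7.08 (median 6.84) in HF_RFIneg, from 6.39 to 7.06 (median 6.79) in HF_RFIpl, from 6.76 to 7.33 (median 7.02) in LF_RFIneg and from 6.79 to 7.26 (median 6.95) in LF_RFIpl pigs. HF pigs lay below the LF mean in 22 of 24 cases, and 8 lay below every LF pig. HF pigs averaged 6.80 ± 0.17 (SD, n = 24) and LF pigs 7.01 ± 0.15 (SD, n = 24). The difference was -0.21 (SE 0.048, fold 1.16, BH p = 0.0013 with limma). The second site, A_72_P313048, fell by 0.19 (SE 0.060, BH p = 0.019 with limma). It correlated with the first at r = 0.56 over the 48 pigs, and at r = 0.43 with group means removed. Neither CCNG1 probe was called with spike-in centring, which gave -0.062 and -0.045, and A_72_P303099 was not called after quantile normalization (-0.12).

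MDM2 differed by less than the spread between pigs. A_72_P303004 ranged from 0.34 to 0.71 (median 0.52) in HF_RFIneg, from 0.31 to 0.78 (median 0.55) in HF_RFIpl, from 0.38 to 0.81 (median 0.65) in LF_RFIneg and from 0.36 to 0.88 (median 0.53) in LF_RFIpl pigs. The 4 groups overlapped over most of their range. The difference was -0.067 (SE 0.043, 95% interval -0.15 to 0.019, BH p = 0.28 with limma), and it turned to 0.080 with spike-in centring.

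BAX gave no call at any of its 3 probes. A_72_P206452 ranged from 2.51 to 3.08 (median 2.70) in HF_RFIneg, from 2.49 to 3.17 (median 2.68) in HF_RFIpl, from 2.45 to 3.03 (median 2.78) in LF_RFIneg and from 2.42 to 3.29 (median 2.69) in LF_RFIpl pigs. The groups overlapped almost entirely. The difference was -0.00071 (SE 0.058, 95% interval -0.12 to 0.12), with either sign under the other scalings. The spots with the identical sequence gave 0.055 (SE 0.057) for O1895 and 0.10 (SE 0.066) for A_72_P367598. Within a pig these spots differed with an SD of 0.19 and by up to 0.64, and over pigs they correlated at r = 0.63, although they carried the same 60 bases. With spike-in centring both were called higher in HF, at 0.20 and 0.25. A probe tied to BAX by its description alone, A_72_P014031, rose by 0.14 in HF (SE 0.042, BH p = 0.015 with limma) and gave r = -0.0052 with A_72_P206452 over pigs. It was called in 29 of 48 fits that each left out 1 pig.

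JMY could be followed only through a probe that a supplementary list of the study names so. The scanner files give A_72_P022881 the name of a transcript cluster and describe it as like a TerC family protein, so its identity is unsettled and it was not counted among the members. It ranged from -0.33 to 0.69 (median 0.024) in HF_RFIneg, from -0.23 to 0.48 (median 0.17) in HF_RFIpl, from -0.32 to 0.29 (median -0.067) in LF_RFIneg and from -0.44 to -0.0092 (median -0.16) in LF_RFIpl pigs. HF pigs above every LF pig numbered 9 of 24. The mean rose from -0.12 ± 0.19 (SD, n = 24) in LF to 0.15 ± 0.31 (SD, n = 24) in HF, a difference of 0.27 (SE 0.073, fold 1.21, BH p = 0.0060 with limma), opposite in sign to CDKN1A.

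**Figure D2:**
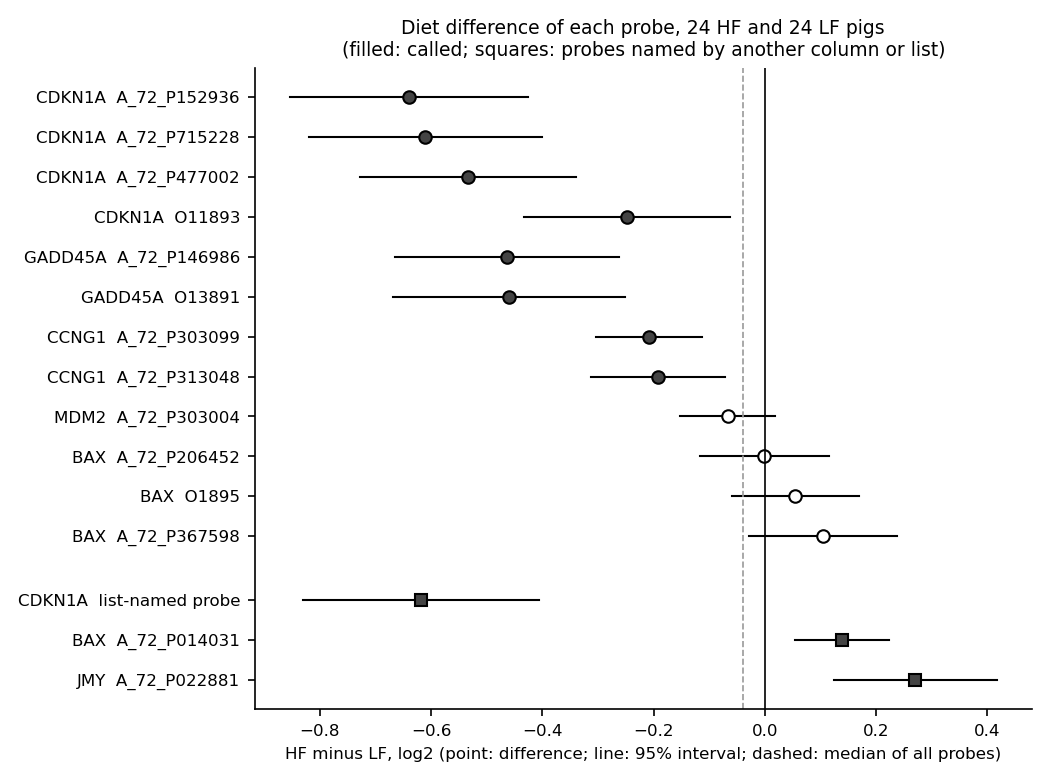
HF minus LF difference on the log2 scale (horizontal axis) for the 12 probes named by the scanner files (circles) and 3 probes tied to a gene by another column or list (squares), with 95% intervals from limma. Filled symbols were called, and the dashed line is the median of all probes, -0.039. The intervals of all CDKN1A, GADD45A and CCNG1 probes lie below 0, and those of MDM2 and of the 3 circles of BAX include 0.

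Each slide carried 4 HF and 4 LF pigs and gives its own estimate of the diet difference. All 8 called probes were lower in HF on 6 of 6 slides. They had been called from the arrays of these same slides, so that the shared sign follows in part from that choice and is no separate test. For A_72_P152936 of CDKN1A the slides ranged from -1.04 to -0.33, and for O13891 of GADD45A from -0.81 to -0.026. For A_72_P303099 of CCNG1 they ranged from -0.31 to -0.092. MDM2 was lower on 4 and higher on 2 slides, and A_72_P206452 of BAX was lower on 3 and higher on 3. The list-named JMY probe was higher on 6 of 6 slides, from 0.12 to 0.48. On the 2 scan days CDKN1A differed by -0.52 and -0.76, GADD45A by -0.42 and -0.50 and CCNG1 by -0.18 and -0.24.

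**Figure D3:**
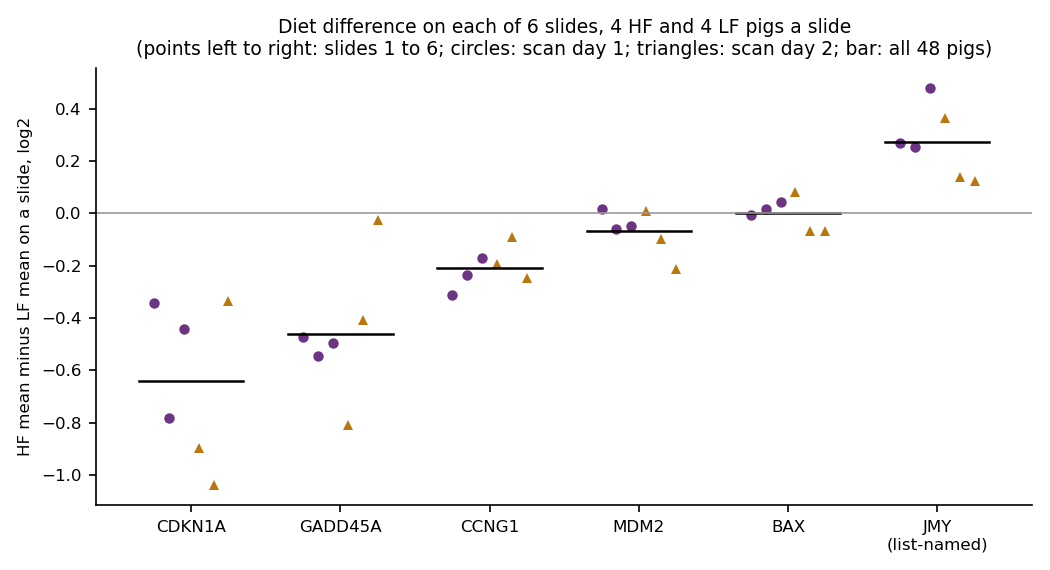
HF mean minus LF mean on each of 6 slides (vertical axis, log2), with 4 HF and 4 LF pigs a slide, for the brightest probe of 5 genes and the list-named JMY probe (horizontal axis). Circles and triangles are slides of scan day 1 and 2, and bars give the difference over all 48 pigs. All 6 points of CDKN1A, GADD45A and CCNG1 lie below 0, and those of MDM2 and BAX fall on both sides.

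No difference between the lines passed the thresholds in these genes. Of the 12 probes, 0 were called for line, against 2.17% of all probes. At a raw p under 0.05 in limma there were 0 of the 12 and 5966 of all probes. With only 12 probes, counts of 0 do not set these genes apart from the rest of the array. Over the 12 probes the RFIneg minus RFIpl differences lay between -0.11 and 0.080. The smallest raw p among them was 0.13 (limma, BH p = 0.69), for A_72_P303099 of CCNG1. For A_72_P152936 of CDKN1A the difference between lines was -0.11 (SE 0.11, 95% interval -0.33 to 0.10).

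The diet difference was not shown to depend on the line. Of the 12 probes, 0 were called for the interaction of diet and line, as were 0 of all 60305 probes (limma), and at a raw p under 0.05 there were 0 of the 12 and 1677 of all. Within RFIneg pigs 5 of the 12 probes were called, all lower in HF, beside 8.17% of all probes, and within RFIpl pigs 7, all lower in HF, beside 9.31%. CDKN1A (A_72_P152936) differed by -0.66 (SE 0.15) in RFIneg and by -0.62 (SE 0.15) in RFIpl pigs. GADD45A (O13891) differed by -0.37 (SE 0.15, BH p = 0.12 with limma) in RFIneg and by -0.54 (SE 0.15, BH p = 0.017 with limma) in RFIpl pigs. The difference between these, 0.17, had a 95% interval of -0.25 to 0.59. The list-named JMY probe was not called in RFIneg pigs, at 0.18 (SE 0.10, BH p = 0.31 with limma). In RFIpl pigs it was called, at 0.37 (SE 0.10, BH p = 0.021 with limma). For this probe the difference between the lines, -0.19, had a 95% interval of -0.48 to 0.10.

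The 4 groups were ordered by diet in the 3 genes that were called. Since these genes had been called for diet from the same groups, the order follows in part from that choice and is no separate test. For CDKN1A the order from low to high was HF_RFIneg, HF_RFIpl, LF_RFIneg and LF_RFIpl, and the only step between neighbours that was called was from HF_RFIpl to LF_RFIneg, 0.53 (SE 0.15, BH p = 0.015 with limma). For GADD45A the order was HF_RFIpl at 3.75, HF_RFIneg at 3.92, LF_RFIneg at 4.29 and LF_RFIpl at 4.30, with no call between neighbours. For CCNG1 it was HF_RFIpl at 6.76, HF_RFIneg at 6.84, LF_RFIpl at 6.98 and LF_RFIneg at 7.04, again with no call between neighbours. No step between neighbours was called in MDM2, BAX or the list-named JMY probe.

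Beyond the 6 genes, lists of upstream regulators of the response, its targets and CDK partners were read with the brightest probe of each gene. Of 83 genes measured, 19 were called for diet, 10 lower and 9 higher in HF, beside 21.4% of all 10638 named genes, 16.3% lower and 5.08% higher. This split depended on the scaling. It was 8 lower and 11 higher with 75th percentile centring, 8 lower and 12 higher with processed signals, 4 lower and 10 higher with quantile normalization, alone or after normexp, and 1 lower and 24 higher with spike-in centring. The median difference was -0.022 over the 83 genes and -0.050 over all named genes, and with spike-in centring the former was 0.12. No gene of these lists was called for line. The same shares of all named genes apply to each list below, and no list was tested as a set.

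Of 22 upstream regulators, 2 were called, both higher in HF, beside 21.4% of all named genes called and 5.08% called higher. IFI16, a nuclear sensor of DNA, rose by 0.31 (SE 0.058) and was above the LF mean in 22 of 24 HF pigs. SIRT1, a deacetylase of histones and other proteins, rose by 0.33 (SE 0.070). The study had already reported IFI16 and SIRT1 as raised by the HF diet in these pigs, so that these calls are no separate evidence. TTC5, a cofactor that binds JMY, differed by 0.082 (SE 0.039, BH p = 0.13 with limma), and with spike-in centring it was called at 0.23. In all, 7 of the 22 regulators were called with spike-in centring, all higher in HF, where 93.7% of all called probes were higher. With 75th percentile centring, processed signals or quantile normalization 3 were called, again all higher.

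Of 11 targets in cell cycle arrest, 3 were called higher and 1 lower in HF, beside 5.08% and 16.3% of all named genes. PLK2, a stress-induced kinase, rose by 0.38 (SE 0.097), BTG2, an antiproliferative gene, by 0.31 (SE 0.080), and CDC25C, a phosphatase that drives entry into mitosis, by 0.21 (SE 0.078) at 1 of its 2 probes. The list thus mixes genes that halt division with genes that drive it, so that a higher call does not mean the same for each. GADD45G, a relative of GADD45A, fell by 0.38 (SE 0.12), while GADD45B, the third of that family, differed by 0.010 (SE 0.10). GADD45G was not called after spike-in centring (-0.24) or quantile normalization (-0.30). With spike-in centring the list held 5 calls, all higher in HF.

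Of 19 targets in apoptosis, 3 were called lower and 1 higher in HF, beside 16.3% and 5.08% of all named genes. CYCS, which encodes cytochrome c, fell by 0.54 (SE 0.087), with 12 of its 14 probes called lower. The study had already listed CYCS as lowered by the HF diet in these pigs. AIFM2 fell by 0.26 (SE 0.079), and BNIP3L, a receptor of mitophagy, by 0.14 (SE 0.044). The gene called higher, whose name is not given here, rose by 0.46 (SE 0.090) and was above the LF mean in 22 of 24 HF pigs. With spike-in centring the split was 1 lower and 4 higher.

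Of 11 targets in DNA repair and metabolism, 4 were called lower and 1 higher in HF, beside 16.3% and 5.08% of all named genes. RRM2B, the damage-inducible subunit of ribonucleotide reductase, fell by 0.28 (SE 0.058), whereas RRM2, the subunit of dividing cells, rose by 0.38 (SE 0.14). SESN1, a sestrin, fell by 0.23 (SE 0.078), GLS2, the liver-type glutaminase, by 0.20 (SE 0.048), and PCNA, the clamp of DNA polymerases, by 0.18 (SE 0.057). With spike-in centring these 4 falls shrank to between -0.13 and -0.030 and were not called, and the 4 calls of the list were then all higher in HF.

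Of 5 secreted or surface targets, IGFBP3, which binds insulin-like growth factors, rose by 0.35 (SE 0.10), and CD82, a tetraspanin, fell by 0.24 (SE 0.074). Of 16 CDK inhibitors, cyclins, CDKs and pocket proteins, CDK6 rose by 0.18 (SE 0.046) and RBL2, a relative of the retinoblastoma protein, fell by 0.17 (SE 0.055). After quantile normalization GADD45G, AIFM2, BNIP3L, SESN1, CD82 and RBL2 were not called, and after spike-in centring AIFM2, BNIP3L, CD82 and RBL2 were not called either. The inhibitor closest to CDKN1A in kind, CDKN1B, which encodes p27, differed by 0.054 (SE 0.038, BH p = 0.33 with limma).

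**Figure D4:**
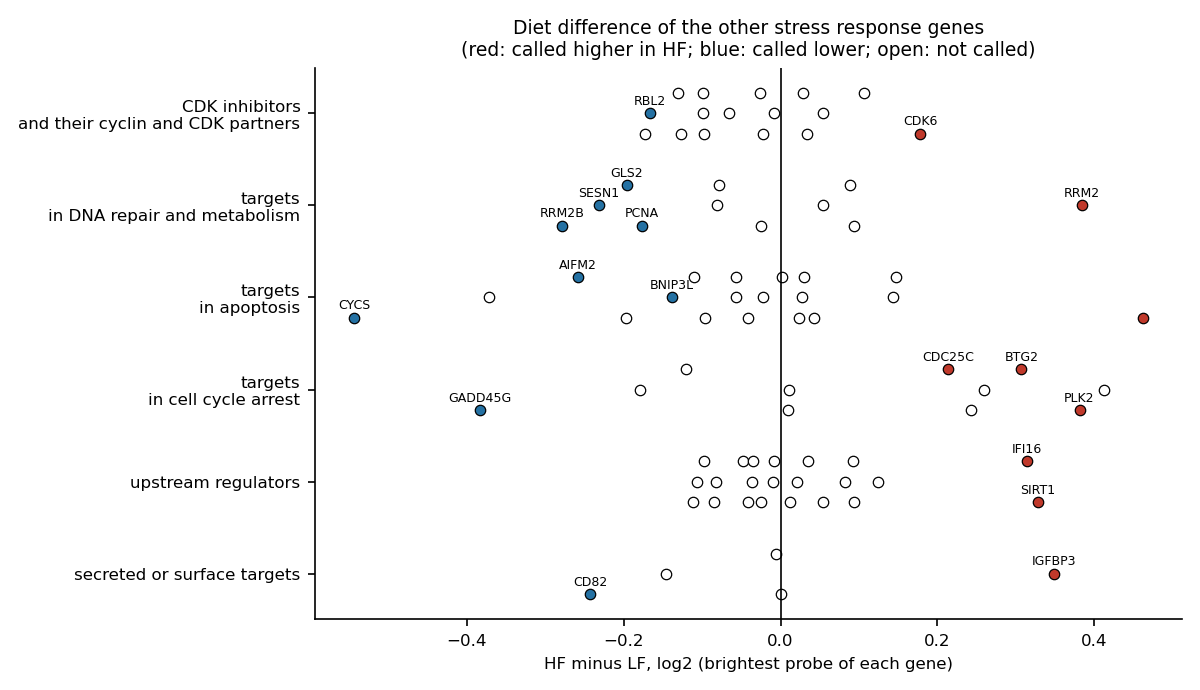
HF minus LF difference on the log2 scale (horizontal axis) of the brightest probe of each stress response gene, by list (vertical axis). Each point is a gene, red where called higher and blue where called lower in HF, with open points not called. Called genes lie on both sides of 0, from CYCS at -0.54 to an unlabelled gene of the apoptosis list at 0.46, whereas with spike-in centring 24 of 25 calls were higher.

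Markers of other cells moved with diet beside these genes. Of 7 macrophage markers 6 were called higher in HF, with a median difference of 0.66 over the 7. Their summed signal, in multiples of the array median, ranged from 49.7 to 363 in HF_RFIneg, 67.1 to 351 in HF_RFIpl, 43.6 to 293 in LF_RFIneg and 63.0 to 151 in LF_RFIpl pigs. Of 7 adipocyte markers 3 were called lower in HF, with a median of -0.19, and their summed signal ranged from 4366 to 5583 in HF_RFIneg, 4128 to 5648 in HF_RFIpl, 4512 to 6076 in LF_RFIneg and 4623 to 5872 in LF_RFIpl pigs. None of these 14 markers was below background on every array. T and NK cell markers were higher at 2 of 5 genes, proliferation markers were called at 1 lower and 1 higher of 6, and 1 of 2 kidney markers was lower. Among all 10638 named genes, 21.4% were called for diet. Of the 2 kidney markers, 1 was well above background on no array. Markers of endothelium (5 genes), fibroblasts (5), erythrocytes (2), mesothelium (1), skeletal muscle (4) and adrenal cortex (4) gave 0 calls. With spike-in centring 7 of 7 macrophage markers and 5 of 5 T and NK cell markers were called higher, as were 2 fibroblast markers, 1 endothelial marker and 2 proliferation markers, and adipocyte markers gave 1 lower and 1 higher call with a median of -0.039. Adipocyte calls were 2 lower with 75th percentile centring, processed signals, the two-way analysis of variance and slide or scan day as a block, and 2 lower and 1 higher after quantile normalization. The part of these markers in the differences of CDKN1A, GADD45A and CCNG1 was not tested.

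Pigs of the same group also differed from each other, and CDKN1A and GADD45A moved together in these deviations. With group means removed, the brightest probes of the 2 genes correlated over 48 pigs with Pearson's r = 0.49 and Spearman's rho = 0.49. Over the 10 pairs of members, this was the only pair under a BH p of 0.05 before slide means were removed as well (two-sided permutation test within groups, 100000 permutations, raw p = 0.00054 and 0.00081, BH p = 0.0054 and 0.0081). Without the 2 pigs farthest from the CDKN1A median r was 0.46, and it was 0.47 and 0.66 within scan day 1 and 2. Among 10638 named genes the r with CDKN1A had a 95th percentile of 0.39, and GADD45A ranked 121.

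The other pairs were weaker or did not hold within scan days. CDKN1A and CCNG1 gave r = 0.32 and rho = 0.35 (BH p = 0.093 and 0.083 by permutation), with 0.48 and 0.18 within the scan days. CDKN1A and MDM2 gave r = 0.0060 and rho = 0.058, with 0.31 on day 1 and -0.36 on day 2. MDM2 and GADD45A gave r = 0.077 and rho = 0.11, with 0.61 on day 1 and -0.45 on day 2, so that a pooled value hides opposite signs. MDM2 and BAX gave r = -0.35 and rho = -0.29 (BH p = 0.093 and 0.17 by permutation). GADD45A and BAX gave r = -0.31 and rho = -0.17 (BH p = 0.093 and 0.45 by permutation). With slide means removed too, this pair passed, at r = -0.47 and rho = -0.39 (BH p = 0.0053 and 0.038 by permutation), with -0.65 and -0.13 within the scan days. The r of the 4 pairs not named here lay between -0.047 and 0.24.

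**Figure D5:**
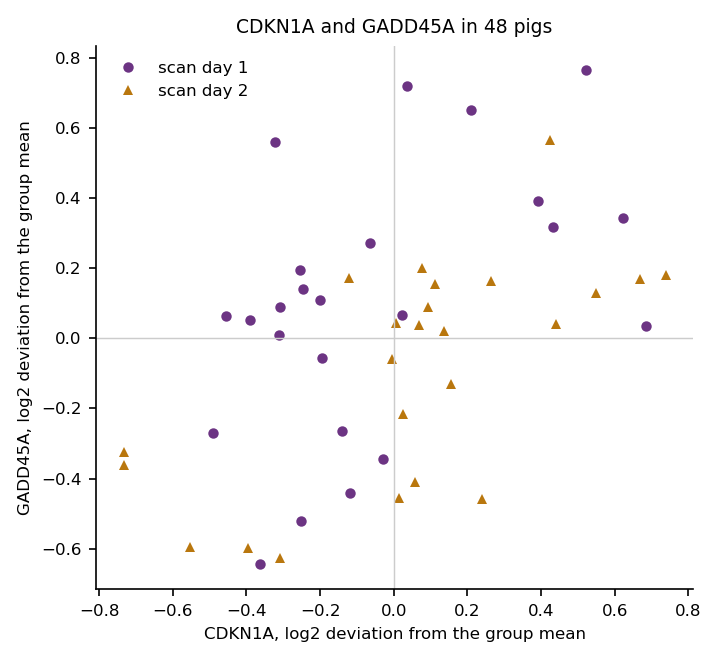
Deviation of each of 48 pigs from its group mean in CDKN1A (A_72_P152936, horizontal axis) and GADD45A (O13891, vertical axis), on the log2 scale. Circles and triangles are pigs of scan day 1 and 2. Points rise from the lower left to the upper right, with r = 0.49 over all pigs and 0.47 and 0.66 within the days.

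The genes most like CDKN1A over the 48 pigs, with group means removed, were USP10 (r = 0.73), ADIPOR1 (r = 0.64), PANK3 (r = 0.63), PRNP (r = 0.63) and GPD1 (r = 0.63), out of 10638 named genes. USP10 is a ubiquitin protease, ADIPOR1 is a receptor of adiponectin, PANK3 starts the synthesis of coenzyme A, PRNP encodes the prion protein and GPD1 makes glycerol 3-phosphate in fat cells. All 5 were also called lower in HF, beside 16.3% of all named genes, PANK3 by the largest margin among them, -1.07. For the list-named JMY probe the closest were ARRDC3 (r = 0.60), TAF5 (r = 0.58), MGEA5 (r = 0.56), IFIH1 (r = 0.56) and RGS3 (r = 0.55). MGEA5 (0.31) and RGS3 (0.43) were called higher in HF, beside 5.08% of all named genes. ARRDC3 (-0.18), TAF5 (0.028) and IFIH1 (0.13) were not called for diet. The r of the list-named JMY probe with CDKN1A was 0.040.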

How the data were processed

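Perirenal adipose tissue of 48 pigs was measured on one-colour porcine arrays. The spot intensity values were made by the authors with Feature Extraction 10.7.3.1 after Cy3 labelling and deposited without normalization between arrays, beside a mark for each spot that was above background or saturated. For 38142 probes the authors also deposited log2 values, after a filter on spots and with the median of each array subtracted. Each entry of that table equalled a spot of the scanner files within 1e-06, but 2 entries alone carried the name of that spot, so names came from the scanner files. The submitters' processing notes name R 2.10.0. The genome build is not given in the sources used here.

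Here, log2 of the median intensity was centred on the median of all probes that are no controls, and spots of 1 probe were averaged. Diet, line and interaction were fitted with limma 3.58.1 (R 4.3.3, lmFit and eBayes). The fit was tested on simulated data. Python 3.11.15 with numpy 2.4.6, pandas 2.3.3, scipy 1.17.1 and matplotlib 3.10.9 did the rest. Replicates were separate pigs, and their number limits the precision. The members and lists were chosen with earlier results of these data known. All probes of the members were named, every called gene of a pathway list with 5 or fewer calls (otherwise the 3 largest differences), IFI16 and TTC5, and the 5 genes most like CDKN1A and JMY. The names or results of some other genes that fall under this rule are not reported here. Alternatives were other centrings, normalizations, filters, blocks, thresholds, the two-way analysis of variance of the methods and, added after seeing the data, each pig left out in turn. Probe sequences are from the scanner files.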

Additional observations from a re-analysis of the deposited data

How the results depend on the processing

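The 8 calls for diet became 6 to 8 under all alternatives but the fold threshold of 1.5, which left 2, both at the brightest CDKN1A site, and 0 of the 83 pathway genes. Among all 60305 probes that threshold left 465 calls. With spike-in centring 7 probes were called, 5 of them shared with the 8, and the 2 added were BAX probes called higher. The probe O11893 of CDKN1A lost its call under 11 alternatives. Leaving out 1 pig at a time left 7 to 8 calls, and gave 0 calls for line and for interaction in every case. The differences of the CDKN1A, GADD45A and CCNG1 probes kept their negative sign under every alternative, but with spike-in centring O11893 (-0.10) and both CCNG1 probes (-0.062 and -0.045) were not called. With 1 pig left out the difference of A_72_P152936 lay between -0.67 and -0.61.

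Signs turned for A_72_P206452 of BAX, at 0.022 with 75th percentile centring, 0.15 with spike-in centring, 0.0062 with processed signals, 0.0094 with normexp and quantile normalization, 0.026 with quantile normalization and between -0.020 and 0.026 with 1 pig left out. They also turned for MDM2 (0.080) and BNIP3L (0.0076) with spike-in centring. The cause was not tested. Line and interaction gave 0 calls among the 12 probes under every alternative.

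Pairs of members under a BH p of 0.05 rose from 1 to 2 when slide means were removed too, which added GADD45A and BAX at r = -0.47, and to 2 with the mean of all probes of a gene, which added MDM2 and CCNG1 at r = 0.42. Replicate numbers were not taken to pair the pigs. After group means were removed, 33 of 72 same-numbered pairs of arrays correlated over 0.1 (range -0.25 to 0.48, median 0.077, against 0.054 for other numbers on the same slide), and 16 of 48 arrays correlated best with one of their own number. All 72 same-numbered pairs also shared a slide. With the replicate number as a block 8 of the 12 probes were called for diet and 11732 of all probes. Without a block 10640 of all probes were called, and with slide as a block 11296.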
